A study of Homo sapiens with 12 samples.

Results

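The proteasome genes of SW1783 cells were the 50 protein-coding genes, of 60675 genes in the count table, whose symbols begin with PSMA, PSMB, PSMC, PSMD, PSME, PSMF or PSMG followed by a digit. They were grouped by role as 8 core alpha genes, 8 core beta genes, 5 immune genes, 6 base ATPases, 11 regulatory non-ATPase genes, 3 genes for other activators and an inhibitor, 7 assembly genes, and 2 genes that carry such a name only through a partner. Of the 50 genes, 48 had reads, while PSMA8 and PSMB11, the testis and thymus forms of core subunits, had 0 counts in all 12 libraries.

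The proteasome is the enzyme complex that breaks down proteins tagged with ubiquitin. Its barrel-shaped core is built from rings of alpha and beta subunits with the cutting sites inside, and a regulatory cap unfolds the substrate with a ring of ATPases and feeds it in. Cells exposed to interferon exchange the cutting subunits for immune forms and add an activator of another kind, and when proteasome activity is short, the transcription factor NRF1, encoded by NFE2L1, is cleaved to its active form and raises the subunit genes together.

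SW1783 is a human astrocytoma line, and every library came from this line after 24 h of treatment. Cells of the vehicle group were given PBS containing 2% DMSO, and those of the treated groups a water extract of Aconitum carmichaeli Debeaux (ACD) at 20 µg/mL (low dose), 100 µg/mL (medium dose) or 500 µg/mL (high dose), with 3 libraries in each of the 4 groups. In the study the extract stock was also made in PBS with 2% DMSO, and extract was added to growth medium in the wells. The 2% thus describes the solvent and not the medium. The comparison asked which transcripts responded to ACD at each dose. ACD is the extract named in the study, the sample titles and the treatment labels, whereas the treatment protocol in the labels describes Poria cocos, another herb. Nothing states that the 3 libraries of a group came from separate cultures, so the p-values measure the spread between these libraries, which may be technical, and in bulk RNA fewer cells and less RNA per cell cannot be told apart. Library totals ranged from 18863863 to 24200576 counts, of which 103318 to 147569 fell on proteasome genes. Of 7 astrocyte markers, VIM, NES and SLC1A3 were detected, with mean normalised counts of 98915, 148 and 442, whereas GFAP and S100B averaged 2.14 and 1.74 normalised counts, ALDH1L1 averaged 0.476 and AQP4 was at 0. These markers moved with dose as well: from vehicle to the high dose the group means went from 690 to 126 for SLC1A3 (log2 fold change -2.45 ± 0.11), from 214 to 64.7 for NES (-1.72 ± 0.16) and from 88412 to 108048 for VIM (0.29 ± 0.03), and their part in the values of the proteasome genes was not tested.

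At the high dose, 28 of the 48 measured proteasome genes were lower than in vehicle and 4 were higher by DESeq2 (adjusted p under 0.05), and 16 were not called. With libraries scaled by their totals, 35 were lower and 1 was higher, while 5857 of all 18857 genes tested were lower and 3401 higher. Among all 19453 genes tested, 22.6% were called lower and 23.9% higher. This background held genes with mean normalised counts down to 1.72, whereas the lowest mean among the 48 proteasome genes was 325. A gene with few counts is harder to call, so shares of all genes called also reflect count level. The lowest mean tested differed between comparisons, and was 18.3 for medium against vehicle and 263 for low against vehicle. The median log2 fold change of the proteasome genes was -0.13, with a range from -0.42 for PSMC3 to 0.32 for PSME1, beside a median of -0.01 over all tested genes. No proteasome gene was a differentially expressed gene (DEG) under the study's thresholds, adjusted p under 0.05 and a fold change over 1.5, compared with 18.2% of all genes in this fit. The study itself reported fewer DEGs for this line and dose. The edgeR test with the same thresholds also gave 0 proteasome genes, while 34 of the 48 had an unadjusted p under 0.05 by DESeq2. A test of the opposite question, whether the change was smaller than 1.5-fold, passed for 48 of 48 genes, and for 51.8% of all genes. Passing needs a small standard error, which was 0.03 to 0.10 for the proteasome genes. Genes with few counts are less able to pass, so the share of all genes also reflects count level. The libraries of the high dose lay entirely below the vehicle libraries for 32 genes and entirely above them for 7, against 29.9% and 30.6% of all genes, and they overlapped for 9.

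**Figure D1:**
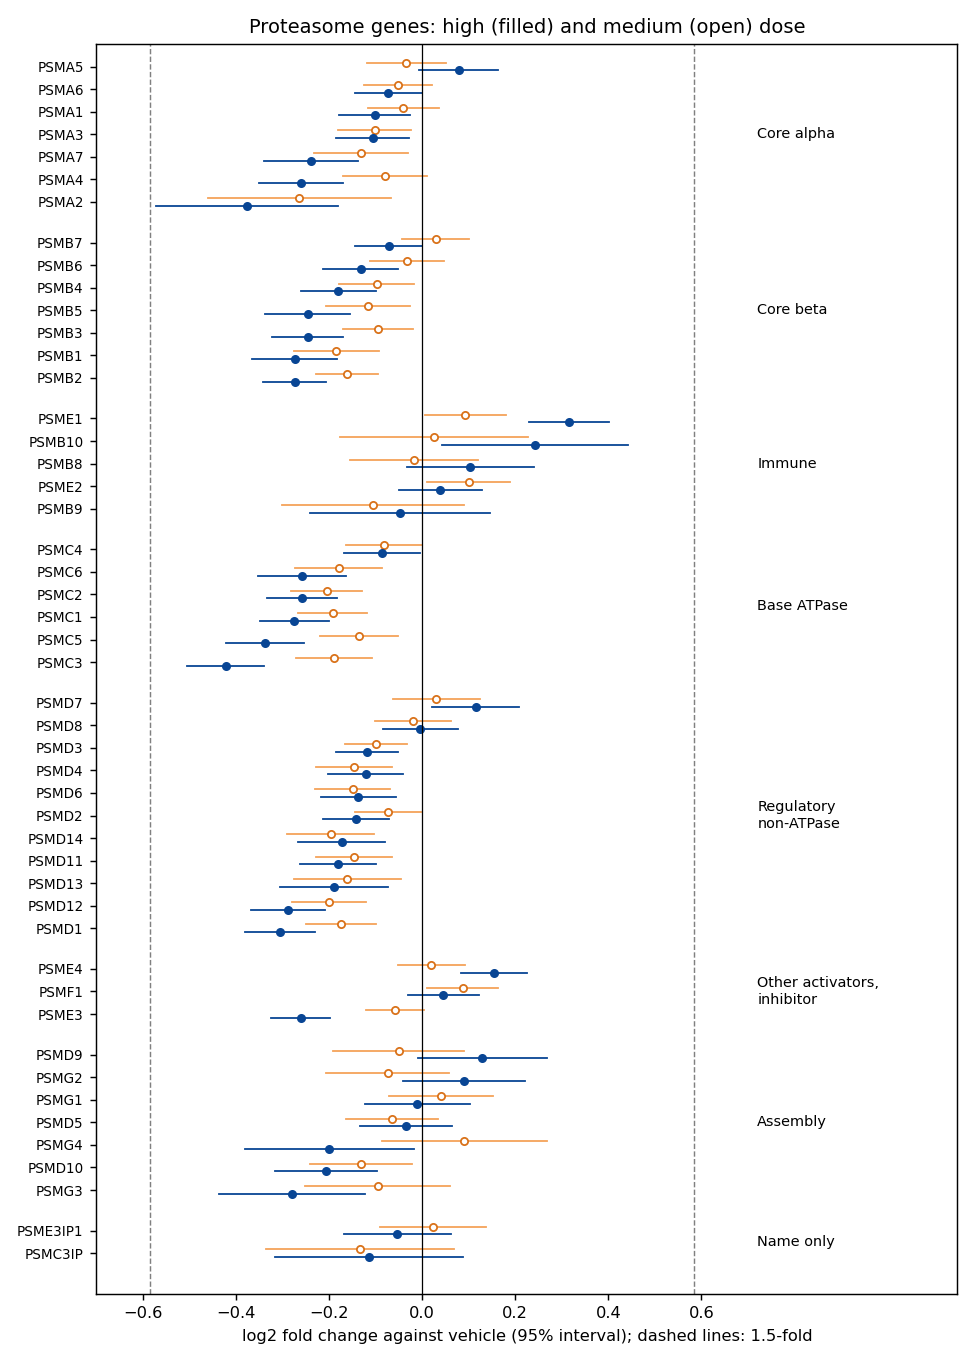
Log2 fold change against vehicle (horizontal axis) with its 95% interval for each of the 48 measured proteasome genes, in rows grouped by role, at the high dose (filled points) and the medium dose (open points), with dashed lines at 1.5-fold. The base ATPases and most core genes lie left of 0, PSME1 lies farthest to the right, and no high-dose interval crosses a dashed line.

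At the medium dose, 20 proteasome genes were lower and 0 were higher, and 0 were DEGs, while 14.5%, 15.1% and 3.81% of all genes were lower, higher and DEGs. The count of lower genes was 36 when libraries were scaled by their totals, where 4467 of all 15275 genes tested were lower. The count was 13 without vehicle replicate 3, 13 without medium replicate 2 and 12 without medium replicate 3. No proteasome gene was higher at the medium dose by DESeq2, although 26 genes in either direction had an unadjusted p under 0.05 and the edgeR test called 3 higher. All 20 genes were also lower at the high dose, and the medium and high groups share the vehicle libraries as their control. The 8 genes called lower at the high dose and not at the medium dose were PSMA1, PSMA4, PSMB4, PSMB6, PSMD2, PSMD10, PSME3 and PSMG3. At the low dose, PSMB1 was the only gene called, and it was lower, while 4 genes had an unadjusted p under 0.05. The background there was 1.24% lower, 2.05% higher and 0.118% DEGs. The smaller-than-1.5-fold test passed for 48 of 48 genes at both the medium and the low dose, and for 63.5% and 78.8% of all genes. These shares carry the same limit of count level.

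Between doses, 11 proteasome genes were lower and 5 higher at the high dose than at the medium dose (all genes, 19.8% and 21.1%), and 11 were lower and 0 higher at the medium dose than at the low dose (all genes, 9.58% and 9.29%). The latter count of lower genes was 25 when libraries were scaled by their totals and 6 without low replicate 2 or without medium replicate 3. With scaling by totals, 2929 of all 14082 genes tested were lower in that comparison. Over the 4 groups together, the DESeq2 likelihood ratio test called 32 of 48 genes, compared with 45.8% of all genes. Group means fell with each step of dose for 20 genes and rose with each step for 1, PSME1, while 16.9% and 17.2% of all genes did so. Of the 28 genes lower at the high dose, 9 were also lower when the high dose was set against the medium dose: PSMA4, PSMB2, PSMB3, PSMB5, PSMB6, PSMC3, PSMC5, PSMD1 and PSME3.

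The share of all counts that fell on proteasome genes was 0.646% ± 0.006 (SD, n = 3) in vehicle, 0.618% ± 0.007 with the low dose, 0.563% ± 0.012 with the medium dose and 0.541% ± 0.010 with the high dose. Mitochondrially encoded transcripts enter this total, and without them the shares were 0.681%, 0.664%, 0.630% and 0.595%. The summed normalised counts of the 48 genes at the high dose were 90.5% ± 1.39 of the vehicle mean. By role, the high-dose sums were lowest for the base ATPases, at 82.7% ± 1.38, followed by the core beta genes at 86.8% ± 1.31, the core alpha genes at 89.5% ± 3.19 and the regulatory non-ATPase genes at 90.7% ± 2.30. The assembly genes stood at 95.3% ± 0.860 and the other activators and inhibitor at 97.2% ± 1.43. Only the immune genes summed to more than in vehicle, at 110.5% ± 1.92. Most of this rise came from PSME1, whose mean went from 1793 to 2230 normalised counts. The means went from 2683 to 2755 for PSME2, from 758 to 815 for PSMB8 and from 380 to 450 for PSMB10. PSMB9 went from 347 to 335. As a share of all counts, the immune genes held 0.0294% ± 0.0005 in vehicle and 0.0301% ± 0.0006 at the high dose.

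**Figure D2:**
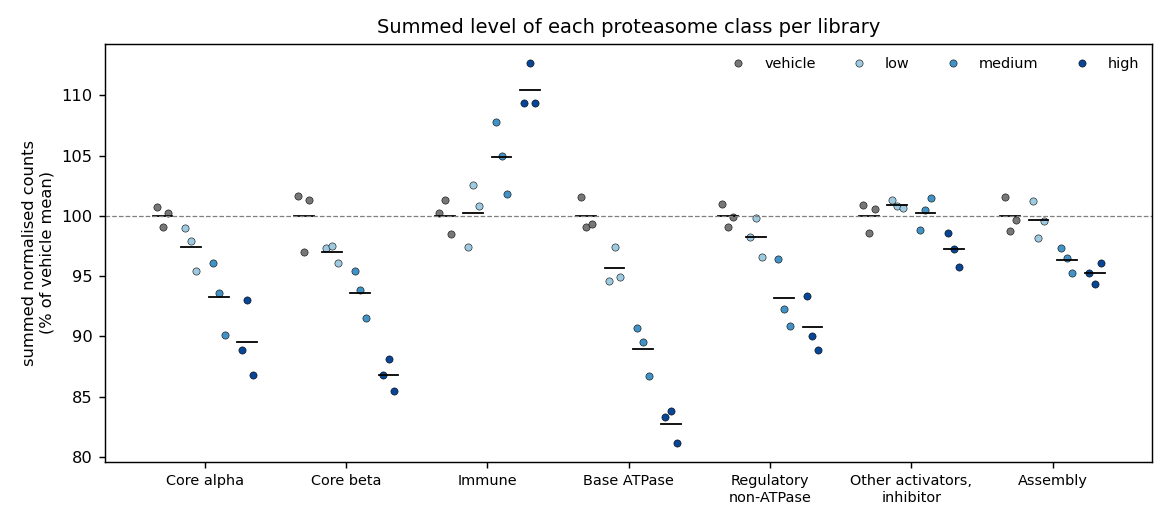
Summed normalised counts of each class of proteasome genes in each library, as percent of the vehicle mean (vertical axis), with the 4 groups in order of dose and bars at the group means. The base ATPases step down to 82.7% at the high dose, and the sum of the immune genes, most of whose rise is PSME1, steps up to 110.5%.

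The base ATPases form the ring that unfolds substrates and opens the core, and 5 of 6 were lower at the high dose, with only PSMC4 not called (log2 fold change -0.09, adjusted p = 0.080). PSMC3 (chr11:47418769-47426473) had 2538, 2519.7 and 2554 normalised counts in the vehicle libraries, 2309, 2448 and 2283 with the low dose, 2304, 2185 and 2192 with the medium dose and 1923, 1868 and 1893 with the high dose. All high-dose libraries lay below all vehicle, low and medium libraries. PSMC3 changed most of the 48 genes, by a log2 fold change of -0.42 ± 0.04 (SE, n = 3, adjusted p = 1.50e-22), and fell by 25.4%. At the medium dose its log2 fold change was -0.19 ± 0.04 (adjusted p = 4.95e-05).

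PSMC5 (chr17:63827152-63832026), another ATPase of the ring, had 3041, 3029.6 and 3039 normalised counts in the vehicle libraries, 2911, 3038 and 2953 with the low dose, 2926, 2755 and 2621 with the medium dose and 2499, 2335 and 2382 with the high dose. Its 3 vehicle libraries lay within a narrow band, and every high-dose library was below every other library. The log2 fold change was -0.34 ± 0.04 at the high dose (adjusted p = 2.41e-14) and -0.14 ± 0.04 at the medium dose (adjusted p = 0.0069), and the medium-dose call was lost without medium replicate 3 (log2 fold change -0.10, adjusted p = 0.12). Exons of FTSJ3 on the opposite strand overlap 15.3% of the PSMC5 exons, and whether the counting used strand is not stated. PSMC1, PSMC2 and PSMC6 had log2 fold changes of -0.27, -0.26 and -0.26 at the high dose. PSMC1 overlaps NRDE2 on the opposite strand over 76.1% of its exons, so its value is uncertain. In all, 7 of the 50 genes shared more than 10% of their exon bases with a gene on the opposite strand.

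The core alpha genes encode the outer rings that gate the entrance of the barrel. At the high dose, 5 of the 7 with reads were lower, and PSMA5 and PSMA6 were not called. PSMA2 (chr7:42916828-42932185) had 2768, 2609.9 and 2603 normalised counts in the vehicle libraries, 2588, 2479.6 and 2099 with the low dose, 2471, 2153 and 2027 with the medium dose and 1982, 2234 and 1929.6 with the high dose. Its high-dose libraries lay below all vehicle libraries and overlapped with the medium ones. Its log2 fold change was -0.38 ± 0.10 (adjusted p = 5.36e-04). A protein-coding readthrough gene on the same strand held counts equal to 22.7% of those of PSMA2, so reads may have been divided between them.

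PSMA4 (chr15:78540405-78552417), also of the alpha ring, had 2785, 2784 and 2715 normalised counts in the vehicle libraries, 2638, 2802 and 2867 with the low dose, 2802, 2481 and 2566 with the medium dose and 2330.4, 2324 and 2265 with the high dose. The high-dose libraries were below all others, whereas 1 medium library was above every vehicle library. Its log2 fold change was -0.26 ± 0.05 at the high dose (adjusted p = 8.65e-08) and -0.08 ± 0.05 at the medium dose (adjusted p = 0.19). PSMA7 had a log2 fold change of -0.24 at the high dose, and PSMA1 and PSMA3 had -0.10 and -0.11.

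Of the 7 core beta genes with reads, 6 were lower at the high dose. PSMB1 (chr6:170535120-170553307), a structural subunit of the inner ring without a cutting site, was the 1 gene called at every dose. PSMB1 had 3254, 3105 and 3284 normalised counts in the vehicle libraries, 2890.3, 2941 and 2855 with the low dose, 2965, 2916 and 2609 with the medium dose and 2770.3, 2618 and 2591 with the high dose. Every treated library was below every vehicle library, and the low-dose and medium-dose libraries overlapped. It had a log2 fold change of -0.15 ± 0.05 at the low dose (adjusted p = 0.039), -0.18 ± 0.05 at the medium dose (adjusted p = 5.18e-04) and -0.27 ± 0.05 at the high dose (adjusted p = 1.90e-08). The low-dose call was lost in 5 of the 6 fits that left out 1 vehicle or low-dose library.

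PSMB2 (chr1:35599541-35641526), another beta subunit without a cutting site, had 4394, 4179.9 and 4400.2 normalised counts in the vehicle libraries, 4186, 4207 and 4409 with the low dose, 3898, 3902 and 3799 with the medium dose and 3579.5, 3590.2 and 3555 with the high dose. Its libraries separated into vehicle and low dose, then medium, then high, with no overlap between these steps. Its log2 fold change was -0.27 ± 0.03 at the high dose (adjusted p = 8.63e-15) and -0.16 ± 0.03 at the medium dose (adjusted p = 2.25e-05).

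The constitutive core has 3 cutting subunits. PSMB5 (chr14:23016543-23035230), which carries the chymotrypsin-like site, had 2559.7, 2565 and 2488 normalised counts in the vehicle libraries, 2473, 2538 and 2262 with the low dose, 2390.1, 2386 and 2250.2 with the medium dose and 2103, 2212 and 2104 with the high dose. The high-dose libraries lay below all vehicle and medium libraries, with a log2 fold change of -0.25 ± 0.05 (adjusted p = 6.25e-07). PSMB6 (chr17:4796144-4798502), with the caspase-like site, had 2552, 2422 and 2499.8 normalised counts in the vehicle libraries, 2524, 2539 and 2396 with the low dose, 2504, 2408 and 2395 with the medium dose and 2233, 2310 and 2268 with the high dose. Only the high-dose group was apart, and the log2 fold change was -0.13 ± 0.04 (adjusted p = 0.0035). PSMB7 (chr9:124353465-124415444), with the trypsin-like site, had 3546, 3385 and 3574 normalised counts in the vehicle libraries, 3541, 3425 and 3469.8 with the low dose, 3611, 3547 and 3559 with the medium dose and 3438, 3359 and 3201 with the high dose. Its high-dose and vehicle libraries overlapped, and the log2 fold change of -0.07 ± 0.04 was not called (95% interval -0.14 to 0.00, adjusted p = 0.099).

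The regulatory non-ATPase genes encode the scaffold, ubiquitin receptors and lid of the cap. At the high dose, 9 of 11 were lower, PSMD7 was higher (log2 fold change 0.11, adjusted p = 0.035, with overlapping libraries) and PSMD8 was not called (0.00). The PSMD7 call was lost without vehicle replicate 2 or 3 or high replicate 1 or 2 (adjusted p = 0.18, 0.16, 0.070 and 0.20), its log2 fold change was 0.00 when libraries were scaled by their totals, and exons on the opposite strand overlap 31.2% of its exons. PSMD1 (chr2:231056845-231173116), a scaffold subunit, had 3228, 3128 and 3129 normalised counts in the vehicle libraries, 3108, 3152 and 3269.9 with the low dose, 2775, 2873 and 2757 with the medium dose and 2657, 2497 and 2527 with the high dose. Vehicle and low-dose libraries overlapped, and both higher doses lay below them without overlap. Its log2 fold change was -0.31 ± 0.04 at the high dose (adjusted p = 1.97e-14) and -0.17 ± 0.04 at the medium dose (adjusted p = 5.61e-05).

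PSMD12 (chr17:67337916-67366605), a lid subunit, had 3097, 2942 and 2967 normalised counts in the vehicle libraries, 2887, 2924 and 3063 with the low dose, 2704, 2561 and 2580 with the medium dose and 2534, 2410 and 2433 with the high dose. Each high-dose library lay below each medium library, but the step between these doses did not pass the test (log2 fold change -0.09 ± 0.04, adjusted p = 0.071). Against vehicle the log2 fold change was -0.29 ± 0.04 at the high dose (adjusted p = 7.50e-12) and -0.20 ± 0.04 at the medium dose (adjusted p = 8.67e-06). PSMD2, which is known as a scaffold of the cap, was the most abundant of the 48 genes per length in vehicle, at 6250 normalised counts per kb of transcript, and it took 13.9% ± 0.117 of all proteasome counts in vehicle and 13.9% ± 0.443 at the high dose. PSMD14, the lid enzyme that removes ubiquitin chains, had log2 fold changes of -0.17 at the high and -0.20 at the medium dose.

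**Figure D3:**
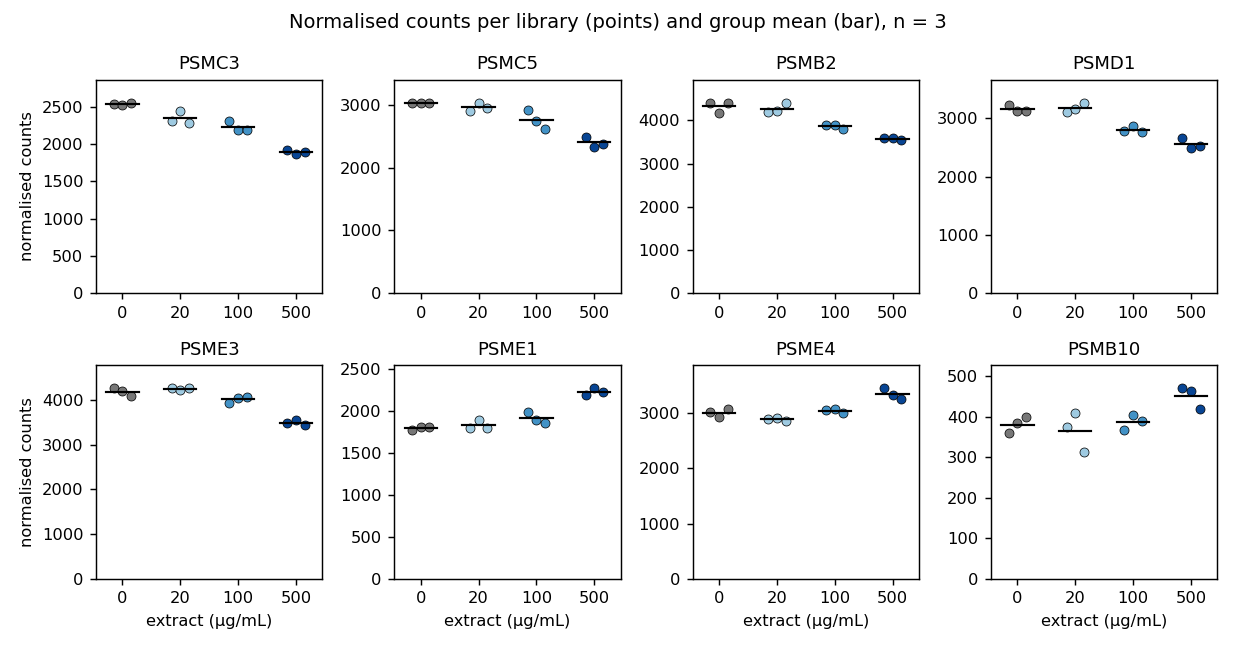
Normalised counts (vertical axes, from 0) against the concentration of extract for 8 proteasome genes, with a point for each of the 12 libraries and a bar at each group mean. PSMC3, PSMC5, PSMB2, PSMD1 and PSME3 are lowest at 500 µg/mL, and PSME1, PSME4 and PSMB10 are highest there.

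None of the 5 immune genes was called lower at any dose, and at the high dose PSME1 and PSMB10 were higher. PSME1 (chr14:24136163-24138967) encodes a subunit of the interferon-inducible activator and had 1768, 1804 and 1807 normalised counts in the vehicle libraries, 1799.6, 1892 and 1802 with the low dose, 1991, 1896 and 1855 with the medium dose and 2190.3, 2271 and 2228 with the high dose. The high-dose libraries were above all others, and the medium libraries were above all vehicle libraries. The log2 fold change was 0.32 ± 0.04 at the high dose (adjusted p = 4.67e-12), a rise of 24.4%, and 0.09 ± 0.04 at the medium dose, which did not pass (adjusted p = 0.10). Its partner PSME2 had a log2 fold change of 0.04 ± 0.05 at the high dose (95% interval -0.05 to 0.13, adjusted p = 0.53).

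PSMB10 (chr16:67934506-67936864), the immune counterpart of PSMB7, had 359, 384 and 399 normalised counts in the vehicle libraries, 373, 410 and 312 with the low dose, 367, 404 and 388 with the medium dose and 470, 463 and 418 with the high dose. The high-dose libraries were above all others, and the spread within the groups was wide. The log2 fold change was 0.24 ± 0.10 (adjusted p = 0.038), a call that was lost without vehicle replicate 1 (log2 fold change 0.20, adjusted p = 0.16), vehicle replicate 2 (0.25, adjusted p = 0.085), high replicate 1 (0.21, adjusted p = 0.13), high replicate 2 (0.22, adjusted p = 0.13) or medium replicate 3 (0.24, adjusted p = 0.052). A readthrough gene held counts equal to 15.5% of those of PSMB10, and with these added the adjusted p was 0.068. When libraries were scaled by their totals the log2 fold change was 0.13 (adjusted p = 0.31), and without independent filtering the adjusted p was 0.061.

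PSMB8 (chr6:32840717-32844679), the immune counterpart of PSMB5, had 784, 768 and 722 normalised counts in the vehicle libraries, 674, 758 and 744 with the low dose, 714, 791 and 739.7 with the medium dose and 828, 795 and 823 with the high dose. All high-dose libraries were above all vehicle libraries, but the log2 fold change of 0.10 ± 0.07 was not called (adjusted p = 0.24), and it was -0.01 when libraries were scaled by their totals. Exons of PSMB8-AS1 and PSMB9 on the opposite strand overlap 17.3% of the PSMB8 exons, so its counts carry the limit given for PSMC5. PSMB9 (chr6:32844136-32859851), the counterpart of PSMB6, had 342, 341 and 357 normalised counts in the vehicle libraries, 329.9, 304 and 299 with the low dose, 299, 350.4 and 315 with the medium dose and 336, 341 and 329 with the high dose. Its high-dose libraries lay just below the vehicle libraries, and the log2 fold change was -0.05 ± 0.10 (95% interval -0.24 to 0.15, adjusted p = 0.74).

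Ratios of paired genes within a library do not depend on how libraries are scaled. Per length, PSMB8 stood at 0.284, 0.278 and 0.270 of PSMB5 in the vehicle libraries and at 0.365, 0.334 and 0.363 at the high dose. The PSMB8 counts in this ratio carry the limit of opposite-strand overlap given above. PSMB10 stood at 0.102, 0.114 and 0.112 of PSMB7 in vehicle and at 0.138, 0.139 and 0.132 at the high dose. PSMB9 stood at 0.109, 0.114 and 0.116 of PSMB6 in vehicle and at 0.122, 0.119 and 0.118 at the high dose. For each of these 3 ratios the high-dose libraries were above the vehicle libraries without overlap, by 1.28-fold, 1.24-fold and 1.06-fold on the means, and the immune form had the lower level per length in each pair. At the low dose PSMB9 stood at 0.106, 0.0970 and 0.101 of PSMB6, below all vehicle libraries, and the medium libraries overlapped with vehicle. Of the 3 immune genes in these ratios, only PSMB10 was itself called higher, and PSMB9 had a log2 fold change of -0.05 where PSMB6 was lower. PSME1 stood at 0.550 ± 0.021 (SD, n = 3) of PSME2 in vehicle and 0.665 ± 0.009 at the high dose. Of 6 ratios examined, each gave p = 0.1 by a two-sided exact permutation test and 0.1 after Benjamini-Hochberg adjustment over the 6. This is the smallest p that 3 libraries against 3 allow.

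**Figure D4:**
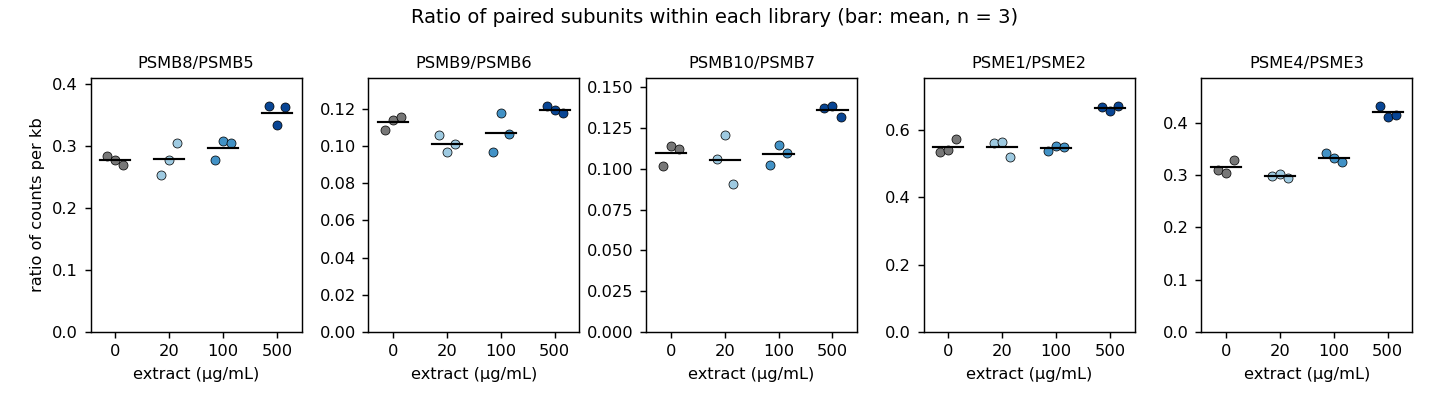
Ratio of counts per kb of transcript (vertical axes, from 0) between paired proteasome genes within each library, against the concentration of extract, with bars at the group means of 3 libraries. For all 5 pairs shown, the 3 libraries at 500 µg/mL lie above the vehicle libraries, and those at 100 µg/mL overlap with vehicle. At 20 µg/mL the ratios PSMB9/PSMB6 and PSME4/PSME3 lie below vehicle.

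Of the other activators and the inhibitor, PSME3 and PSME4 changed in opposite directions. PSME3 (chr17:42824385-42843760), which encodes the nuclear activator, had 4256, 4200 and 4096 normalised counts in the vehicle libraries, 4257, 4221 and 4259.8 with the low dose, 3927, 4049 and 4067 with the medium dose and 3493, 3547 and 3436 with the high dose. The high-dose libraries were below all others and the medium libraries below all vehicle libraries, and the log2 fold change was -0.26 ± 0.03 (adjusted p = 3.29e-15). PSME4 (chr2:53864069-53970993), which encodes an activator linked to the breakdown of acetylated histones, had 3014, 2921 and 3082 normalised counts in the vehicle libraries, 2892, 2909 and 2862 with the low dose, 3061, 3066 and 3008 with the medium dose and 3449.8, 3328 and 3259.6 with the high dose. Its high-dose libraries were above all others, with a log2 fold change of 0.15 ± 0.04 (adjusted p = 6.94e-05). When libraries were scaled by their totals, the PSME4 value was 0.04 and was no longer called. The ratio of PSME4 to PSME3 per length was 0.315 ± 0.013 in vehicle, 0.299 ± 0.004 with the low dose, 0.333 ± 0.009 with the medium dose and 0.421 ± 0.011 with the high dose. PSMF1, the inhibitor, had a log2 fold change of 0.05 ± 0.04 (adjusted p = 0.36).

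Of the 7 assembly genes, whose products build the complex without staying in it, 2 were lower at the high dose. PSMG3 (chr7:1567332-1571005), a chaperone of the alpha ring, had 641, 692 and 794 normalised counts in the vehicle libraries, 662, 667 and 676 with the low dose, 699, 656 and 638 with the medium dose and 565, 602 and 583 with the high dose. Its high-dose libraries were below all vehicle libraries, of which replicate 3 was the highest. The log2 fold change was -0.28 ± 0.08 (adjusted p = 0.0014), and without vehicle replicate 3 it was -0.19 (adjusted p = 0.050). PSMD10 (chrX:108084207-108091549), a chaperone of the ATPase ring, had 1711, 1662 and 1626 normalised counts in the vehicle libraries, 1716, 1645 and 1520.4 with the low dose, 1578, 1551 and 1437 with the medium dose and 1425, 1391 and 1516 with the high dose. High-dose and medium libraries were below all vehicle libraries but overlapped each other, and the log2 fold change was -0.21 ± 0.06 at the high dose (adjusted p = 7.40e-04). PSMG1, PSMG2, PSMG4, PSMD5 and PSMD9 were not called, with log2 fold changes from -0.20 for PSMG4 to 0.13 for PSMD9.

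PSMC3IP and PSME3IP1 met the naming rule although their products are not subunits. PSMC3IP (chr17:42572310-42577831), a cofactor of meiotic recombination, had 333, 326 and 337 normalised counts in the vehicle libraries, 329.9, 349.9 and 399.7 with the low dose, 289, 305 and 313 with the medium dose and 298, 300 and 322 with the high dose, and its log2 fold change was -0.11 ± 0.10 (adjusted p = 0.39). PSME3IP1 (chr16:57152466-57186116), a partner of PSME3, had 1239, 1211 and 1255 normalised counts in the vehicle libraries, 1239, 1232 and 1398 with the low dose, 1209, 1281 and 1273 with the medium dose and 1162, 1176 and 1229 with the high dose, and its log2 fold change was -0.05 ± 0.06 (adjusted p = 0.50). The high-dose libraries of PSMC3IP lay below those of vehicle, and those of PSME3IP1 overlapped with them.

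Promoters were compared for letters that could be shared among the genes. RefSeq promoter sequences of GRCh38.p14, covering 250 bases before to 50 bases after a start, were at hand for 44 of the 50 genes, with 55 starts. An interferon response element, written as GAAA, any 2 bases and GAAA again on either strand, was present in 12.7% of the promoters of proteasome genes and 3.57% of 35116 promoters in all. In the immune class it was present in 4 of 6 promoters, which belong to PSMB8, PSMB10, PSME1 and PSME2. The stretches below, 30 bases each and 5′ to 3′ on the strand of the gene, show it in capitals for the immune genes with library values above, at chr6:32844032-32844061 (minus strand), chr16:67936852-67936881 (minus strand) and chr14:24136189-24136218 (plus strand).
PSMB8: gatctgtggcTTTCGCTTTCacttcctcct
PSMB10: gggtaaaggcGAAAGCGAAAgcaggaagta
PSME1: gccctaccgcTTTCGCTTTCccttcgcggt
The match lies on the gene's strand in PSMB10 and on the other strand in PSMB8 and PSME1, and in PSME1 it begins just past the start. By call at the high dose, it was present in 2 of 4 promoters of higher genes (PSME1 and PSMB10), in 2 of 28 promoters of lower genes (PSMA4 and PSMB4) and in 3 of 21 promoters of genes that were not called (PSMB8, PSME2 and PSMG4). These are counts of starts and not of genes. Among the lower genes, PSMA4, PSMB5, PSMC5 and PSMD2 have more than 1 start, and PSMA7, PSMB1, PSMB6, PSMD4 and PSMG3 have no sequence here.

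An antioxidant response element, TGACNNNGC on either strand, which is the kind of site that NRF1 and NRF2 bind with small MAF partners, was present in 27.3% of the proteasome promoters and 13.3% of all promoters. Counted by start as above, it occurred in 6 of 28 promoters of genes lower at the high dose, in 2 of 4 promoters of genes higher and in 7 of 21 promoters of genes not called. Examples are shown in capitals within 60 bases for a lid gene that was lower, an immune gene that was not called and an activator gene that was higher, at chr17:67366723-67366782 (minus strand), chr6:32854004-32854063 (plus strand) and chr2:53971008-53971067 (minus strand).
PSMD12: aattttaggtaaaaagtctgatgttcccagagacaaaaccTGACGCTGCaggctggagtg
PSMB9: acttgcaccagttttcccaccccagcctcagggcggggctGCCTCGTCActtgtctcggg
PSME4: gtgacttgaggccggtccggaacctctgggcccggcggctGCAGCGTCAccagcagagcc
The match begins 165 bases before the start in PSMD12, 148 bases before it in PSMB9 and 34 bases before it in PSME4. CCAAT, on either strand, was present in 43.6% of proteasome promoters and 34.6% of all, and the heat shock element TTCNNGAA in 5.45% and 7.74%. A match in these letters is a description of the sequence and not of a bound site.

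The list for the NRF1 route holds NRF1 and the proteins that process it. It also holds the related factor NRF2, the repressor of NRF2 and the small MAF partners of both factors. Of 13 genes listed for this route, 9 were higher and 4 lower at the high dose. Their median log2 fold change was 0.48, beside -0.13 for the proteasome genes. Among all genes tested at this dose, 23.9% were higher and 22.6% lower, with a median of -0.01. NFE2L1, which encodes NRF1, rose by a log2 fold change of 0.61 ± 0.03 (SE, n = 3, adjusted p = 2.35e-105), and NFE2L2, which encodes the related factor NRF2, by 0.48 ± 0.05 (adjusted p = 4.30e-22). The small MAF partners MAFF and MAFG rose by 2.05 ± 0.08 and 1.42 ± 0.05, and SYVN1, a ubiquitin ligase of the endoplasmic reticulum, by 0.99 ± 0.05. VCP, the ATPase that extracts proteins from that membrane, and its cofactor NPLOC4 were lower, with log2 fold changes of -0.28 and -0.19. KEAP1, the repressor of NRF2, had -0.14 (adjusted p = 0.033), and leaving out vehicle replicate 2 or 3 or high replicate 2 or 3 lost that call (adjusted p = 0.13, 0.11, 0.15 and 0.081).

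Among 21 partners of the proteasome, 20 had reads. Of these, 13 were higher and 4 lower at the high dose (all genes, 23.9% and 22.6%), with a median log2 fold change of 0.17. POMP, the chaperone that matures the core, was lower, with a log2 fold change of -0.20 ± 0.05 (adjusted p = 3.56e-05). SEM1, a small subunit of the cap that does not carry a PSM symbol, had -0.35 ± 0.07 (adjusted p = 1.30e-06), and MIDN, which carries proteins to the proteasome without ubiquitin, had -0.24 ± 0.06. ZFAND2A, a stress-induced partner, rose by 1.07 ± 0.10, ECPAS, an adaptor that binds the proteasome, by 0.53 ± 0.03, and AKIRIN2, which helps to import proteasomes into the nucleus, by 0.45 ± 0.07.

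In the ubiquitin list, 3 of 7 genes were higher and 2 lower at the high dose (all genes, 23.9% and 22.6%). SQSTM1, an autophagy receptor for tagged proteins, rose by a log2 fold change of 1.96 ± 0.03, and its group means were 10322 normalised counts in vehicle and 40292 at the high dose. UBB, which encodes ubiquitin, had -0.24 ± 0.03. The activating enzymes UBA1 and UBA6 had -0.18 and 0.18, and the UBA6 value was 0.06 and not called when libraries were scaled by their totals. Of 8 genes that work with the immune proteasome in antigen presentation or interferon signalling, 5 were higher and 0 lower, beside those all-gene shares. The 5 included the interferon-responsive factor IRF1 (1.25 ± 0.07), the peptide trimmer ERAP1 (0.46 ± 0.03) and B2M, the light chain of class I molecules (0.36 ± 0.03). TAP1, a peptide transporter named after its values were seen, starts 488 bases from PSMB9 in the opposite direction on chromosome 6. It had a log2 fold change of 0.31 ± 0.05 (adjusted p = 7.05e-11) while PSMB9 was not called, and the ratio of TAP1 to PSMB9 per length was 1.71 ± 0.052 in vehicle and 2.19 ± 0.053 at the high dose.

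**Figure D5:**
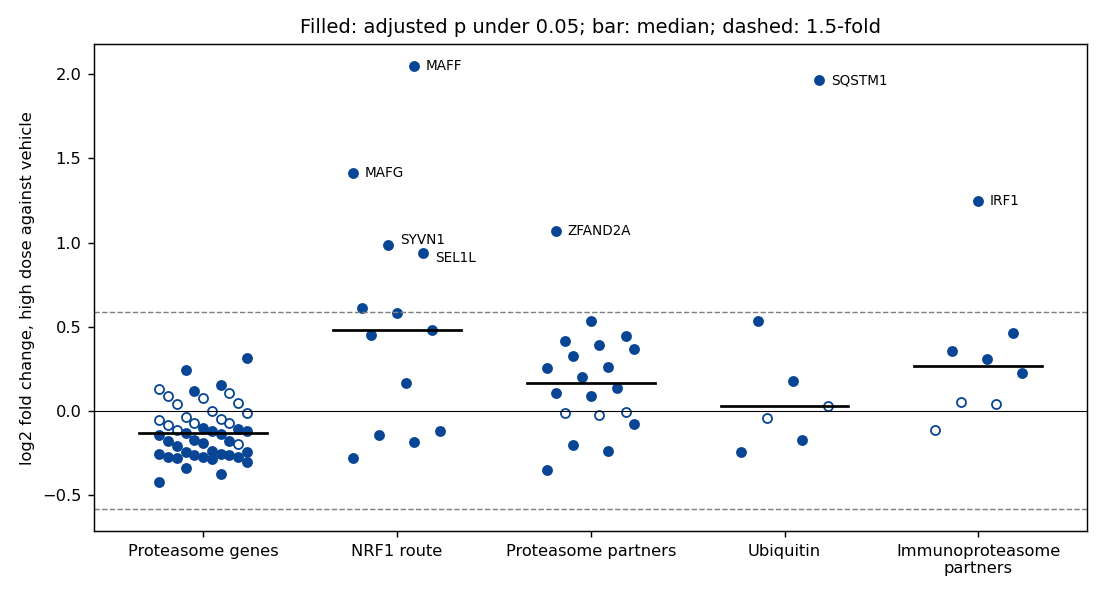
Log2 fold change at the high dose against vehicle (vertical axis) for the proteasome genes and 4 lists of related genes, with filled points for adjusted p under 0.05, bars at the medians and dashed lines at 1.5-fold. The proteasome genes lie within the dashed lines around a median of -0.13, and the NRF1 route reaches 2.05 with MAFF.

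Markers of other cells were read beside the immune genes. Of 6 immune cell markers, CD3E was among those at 0, CD14 and ITGAM averaged 3.82 and 0.962 normalised counts, and PTPRC and CD68 averaged 199 and 3349. Summed over the list, the libraries ranged from 3081 to 3253 in vehicle, 3338 to 3376 with the low dose, 3395 to 3974 with the medium dose and 3919 to 4202 with the high dose, nearly all of it CD68. At the high dose CD68 had a log2 fold change of 0.47 ± 0.05 and PTPRC one of -1.71 ± 0.15, and their part in the values of PSME1 and PSMB10 was not tested. Of 7 colon epithelial markers, KRT20 and CDX2 were at 0 and EPCAM, CDH1 and VIL1 averaged 1.03, 1.03 and 0.601 normalised counts, whereas KRT8 and KRT18 averaged 344 and 3400. Summed over this list, the libraries ranged from 4861 to 5073 in vehicle and from 1797 to 1888 with the high dose, where KRT18 had a log2 fold change of -1.55 ± 0.05 and KRT8 one of -0.59 ± 0.10, and their part in the values of the proteasome genes was not tested.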

How the data were processed

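RNA sequencing of 12 SW1783 libraries in 4 groups of 3 was analysed. Per the labels, the authors checked reads with FastQC 0.11.9, trimmed them with Trim Galore 0.6.5, aligned with STAR 2.7.3a and counted with RSEM 1.3.3. The study's methods name other versions of Trim Galore and STAR. The build was given as GRCh38 with an Ensembl annotation, although the methods write a second build name beside it. They name a directional library kit, but the strand setting of the counting is not given in the sources used here. The deposited values are RSEM expected counts per gene, which divide reads that match several genes and need not be whole (8.75% were not). They were rounded to whole numbers here. All columns matched a library.

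Gene IDs were paired with symbols from GENCODE 44, which matched 56558 of 60675 genes (93.2%). In R 4.3.3, DESeq2 1.42.0 was fitted to all genes and all 12 libraries with group as the only term, and its median-of-ratios size factors gave the normalised counts. Two-sided Wald tests were adjusted by the Benjamini-Hochberg method over all genes kept by independent filtering. Called means an adjusted p under 0.05, and DEG means called with a fold change over 1.5. The test of a change under 1.5-fold and the ratios within a library were added after seeing the data. Levels per kb used the length of the canonical transcript. Coordinates of genes are from GENCODE 44 on GRCh38. The fits were tested on simulated data. Alternatives were the edgeR 4.0.16 quasi-likelihood test, other scalings and filters, a replicate block, other handling of pseudogene and readthrough counts, and each library left out in turn.

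Named in full were the 6 cutting subunits, any DEG, and in each class the 2 genes with the largest absolute log2 fold change at the high dose among those with a mean of at least 100 normalised counts. From each related list, NFE2L1, NFE2L2, POMP and up to 3 called genes in each direction were named. The members and lists were chosen with earlier results of these data known. Depth limits the precision, and the standard errors cover the spread between libraries only. Some genes counted in the ubiquitin and immune marker lists are not reported here by name.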

Additional observations from a re-analysis of the deposited data

How the results depend on the processing

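At the high dose the count of called proteasome genes stayed within 29 to 37 under the other tests, scalings and filters and in the fits that left out 1 library (29 to 32), except that the test against the 1.5-fold threshold itself called 0. That test also called 0 at the medium dose, at the low dose, between the high and medium doses and between the medium and low doses. Scaling by library totals moved the median log2 fold change of all genes with a mean count of at least 100 from 0.02 to -0.09 at the high dose and from 0.00 to -0.11 at the medium dose. Of all genes tested with this scaling, 9258 of 18857 were called at the high dose and 5462 of 15275 at the medium dose. At the low dose 523 of 8110 were called, and between the medium and low doses 3663 of 14082. Scaling by totals called 36 proteasome genes at the high dose (35 lower and 1 higher) and 36 at the medium dose. It called 3 at the low dose and 25 between the medium and low doses. It also turned the sign of the log2 fold changes of PSMB8 at the high dose (-0.0102) and of PSMB10 (-0.0854), PSMB7 (-0.0818), PSME1 (-0.0183), PSME3IP1 (-0.0870) and PSME4 (-0.0915) at the medium dose, none of which was called at that dose in the reported test, while with library totals PSME4 was called lower there (adjusted p = 0.032). The medium-dose value of PSMB10 was -0.0102 with readthrough counts added. With 1 library left out, medium-dose values that crossed 0 ran from -0.0148 to 0.0593 for PSMB10, from -0.0603 to 0.0132 for PSMB8 and from -0.00164 to 0.0373 for PSME4.

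With 1 library left out, the counts ran from 12 to 20 at the medium dose, 0 to 1 at the low dose, 6 to 11 between the medium and low doses, 11 to 15 between the high and medium doses and 27 to 31 among the 4 groups. At the medium dose the lowest were 13 without vehicle replicate 3, 13 without medium replicate 2 and 12 without medium replicate 3, and between the medium and low doses 6 without low replicate 2 and 6 without medium replicate 3. The low-dose call was lost without vehicle replicate 1 or 3 or any low-dose library, and also with no independent filtering (0) and with the replicate block (0). The share of counts on proteasome genes without mitochondrial genes was 0.681%, 0.664%, 0.630% and 0.595% from vehicle to the high dose. By edgeR, 31 genes were lower and 6 higher at the high dose and 22 lower and 3 higher at the medium dose. The cause of these differences was not tested.

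The 3 same-numbered pairs of low-dose and medium-dose libraries correlated in their deviations from the group means at 0.158, 0.124 and 0.193. With the replicate block 8 genes were lower at the medium than at the low dose. In the other comparisons not every same-numbered pair was over 0.1, and all same-numbered pairs with a vehicle library were negative. Deviations within a group cancel out, so same-numbered and different-numbered values are not independent. Over all groups, same-numbered pairs ranged from -0.12 to 0.22 with 5 of 18 over 0.1, different-numbered pairs reached at most 0.0981 with 0 of 36 over 0.1, and 6 of 12 libraries correlated best with their own number. The replicate block called 30 genes at the high dose (28 lower, 2 higher), 19 at the medium dose and 29 among the 4 groups, and at the high dose it lost the calls of PSMB10, PSMD7 and KEAP1 (adjusted p = 0.063, 0.054 and 0.069).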

Other observations

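Reads of proteasome genes can be shared with near copies. Of 44 pseudogenes named after a proteasome gene, 6 had over 3 counts in some library, and the pseudogenes together held 0.270% of the counts of the proteasome genes. PSMC1P1 was the largest, with counts equal to 8.16% of those of PSMC1, and averaged 304 ± 20.1 normalised counts (SD, n = 3) in vehicle and 251 ± 19.5 at the high dose. The 5 readthrough genes on the same strand as a proteasome gene held 0.547% of the counts. The one overlapping PSMA2 averaged 549 ± 96.0 normalised counts in vehicle and 526 ± 40.7 at the high dose, and the one overlapping PSMB10 averaged 65.9 ± 11.5 and 62.3 ± 2.38.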
